A study of Mus musculus with 18 samples.

Results

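The comparison described here asks whether muscle that moves the eye and muscle of the leg differ in how they change between 2 dystrophic mouse genotypes. For each probe set it is the change from mdx to dko in extraocular muscle minus the change from mdx to dko in leg muscle, so that a negative value means a smaller rise, or a larger fall, in extraocular muscle. It uses 12 of the 18 arrays of the study, 3 in each of 4 groups, and pairs dko with mdx arrays of a tissue by the replicate number of their titles. The groups are extraocular muscle of mdx mice, extraocular muscle of dko mice, leg muscle of mdx mice and leg muscle of dko mice, all at 8 weeks of age. The mdx mice carry a nonsense mutation in the dystrophin gene and are called the control, so that neither tissue has a group with dystrophin. The labels do not spell out dko, which in this field usually means double knockout, of dystrophin and of the related protein utrophin. They also do not say which leg muscles were taken, how much surrounding tissue came with the eye muscles, or whether the replicates are separate animals. Each p-value is therefore set against the variation among these samples alone, part or all of which could be technical. In bulk tissue, fewer cells of a type and less RNA per cell cannot be told apart.

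Dystrophin links the actin of the muscle fibre, through a complex of membrane proteins, to the matrix outside, and fibres without it tear and are replaced by regeneration. Utrophin can take the place of dystrophin at the membrane, and mice without both are far weaker than mdx mice. Extraocular muscles are known for being spared in dystrophin deficiency. They also normally mix slow, fast, embryonic and their own myosin in the same muscle, whereas most mouse leg muscles are made largely of fast fibres. Slow fibres are built from their own set of contractile proteins (Myh7, Myl2 and the slow troponins), most of which the heart shares, and newly formed fibres pass through embryonic and perinatal forms.

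The values are fluorescence intensities, scaled by the authors to nearly the same trimmed mean on each array. Array medians were 612.6 to 671.8 units on the arrays numbered 1 and 2 and 525.6 to 552.0 on those numbered 3, and array maxima were 33423.1 to 47588.9 and 47023.9 to 74433.7, so number 3 was set off from numbers 1 and 2 in each group. Within a tissue, the dko and the mdx array that carry a number departed from their group means in like manner (correlation across probe sets 0.404 to 0.751 over 6 pairs). Arrays of the same number in different tissues did so as well (0.337 to 0.74 over 12 pairs). Limma was fitted with the replicate number within a tissue as a block, since the comparison is defined over pairs. Counts of calls without the block are given beside those with it. Among markers of position along the body, Hoxa10 read 208.6 to 632.5 units on the leg arrays and 5.8 to 30.7 on the extraocular arrays, and Hoxc9 read 649.6 to 1203.4 and 66.6 to 175.8. The leg arrays lay above the extraocular arrays without overlap on both genes, and also on Hoxa11 (332.4 to 547.4 against 45.1 to 208.8 units). The tissues overlapped on Hoxc8 (212 to 630.6 units in leg, 257.7 to 589.4 in extraocular muscle) and on Hoxd10 (205.2 to 662 and 185.5 to 1109.1), so the check by limb position genes was mixed. Tbx15 and Pitx1, fixed as limb markers as well, did not set the leg apart, since their levels on the extraocular arrays were as high or higher. Myh13, the myosin heavy chain typical of extraocular muscle, was not analysed here.

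Utrophin, the gene whose loss is taken to separate the genotypes, read lower by probe set 92507_at on every dko array than on the mdx array of its pair. Whether its probes lie in a deleted part of the gene was not examined. It read 553.3, 604.6 and 1086.5 units on the extraocular mdx arrays numbered 1, 2 and 3, against 279.8, 220.2 and 414.3 on the dko arrays. In leg it read 437.6, 492.5 and 550.7 units in mdx and 239.6, 259.8 and 298.2 in dko. No dko array overlapped the mdx arrays of its tissue. The log2 change was -0.93 (SE 0.133, n = 3 pairs, limma adjusted p = 0.0333 with the block and 0.438 without) in extraocular muscle and -0.61 (SE 0.133, n = 3 pairs, limma adjusted p = 0.0602) in leg, and the response difference was -0.32 with a 95% interval of -0.74 to 0.10 (limma adjusted p = 0.648). A second Utrn probe set, 92508_s_at, gave -0.58 (limma adjusted p = 0.713) and overlapped between genotypes in leg. The sign of that value turned to 0.03 without replicate 1. Dystrophin itself (Dmd, 93623_at), carried in mutant form by both genotypes, gave a response difference of -0.20 (limma adjusted p = 0.851).

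Over all 8888 probe sets tested, the leg changed in more probe sets than extraocular muscle did. In leg 107 probe sets passed an adjusted p of 0.05 (1.2%), 90 higher (1.01%) and 17 lower (0.191%) in dko. In extraocular muscle 14 passed (0.158%), 12 higher (0.135%) and 2 lower (0.0225%). The difference between the responses was called for 3 probe sets (0.0338%), all of them lower, and 798 (8.98%) had an unadjusted p under 0.05. Without the block the counts were 5 in leg (0.0563%), 2 in extraocular muscle (0.0225%) and 0 for the difference, which had 180 probe sets (2.03%) at an unadjusted p under 0.05. The 5 leg probe sets were those of Myh7, Myh3, Tubb2a, Postn and Ighm (93584_at), and the 2 extraocular ones those of Myom2 and Ctss. Every other call described for a tissue was lost without the block. With replicates left out, the blocked counts were 2 to 83, 0 to 16 and 0 to 2, and leaving out leg replicate 3 took the extraocular count to 0. The difference between the number of calls in the tissues was not itself tested. The median log2 value over all probe sets was -0.04 for the leg change, -0.006 for the extraocular change and 0.028 for the response difference.

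The probe sets called for the difference were those of Tnnc1, the slow and cardiac troponin C that binds calcium on the thin filament, of Myl2, the slow and cardiac regulatory light chain of myosin, and 98501_at, which has no gene symbol in the table used. Tnnc1 (101063_at) read 10274, 13033.3 and 21980.7 units in extraocular mdx and 10631.9, 13264.3 and 22242 in extraocular dko, so that each pair was nearly level. In leg it read 2344.1, 1360.8 and 2348.2 units in mdx and 11873.8, 9671.9 and 14006.1 in dko, the dko leg reaching the range of extraocular muscle. The log2 change was 2.48 in leg (SE 0.161, 5.58-fold, limma adjusted p = 0.000301) and 0.03 in extraocular muscle (SE 0.161), and the response difference was -2.45 (SE 0.227, 95% interval -2.96 to -1.94, limma adjusted p = 0.0084). The 3 differences of paired changes, -2.21, -2.66 and -2.48, lay close together. Without the block the adjusted p was 1.0 (unadjusted 0.00125). The call was kept without leg replicate 1 or 2 and lost without leg replicate 3 (adjusted p = 0.0601), without any of the 3 extraocular replicates (0.0718 to 0.081) or without any number in both tissues (0.127 to 0.219).

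Myl2 (93050_at) followed the same course with more spread. It read 14182, 16891.6 and 31770.6 units in extraocular mdx, 16835.5, 12742.2 and 33419.1 in extraocular dko, 2478.1, 309.2 and 1094 in leg mdx, and 18139, 14862.3 and 25841.6 in leg dko. Leg mdx stood below all other groups, with no overlap. For Myl2 the response difference was -4.07 (SE 0.521, 95% interval -5.24 to -2.91, limma adjusted p = 0.0481), and by number it was -2.55, -5.38 and -4.29. The leg change was 4.05 (16.5-fold, limma adjusted p = 0.00193) and the extraocular change -0.03. The call was kept without leg replicate 1 (adjusted p = 0.01) and lost when any other replicate was left out (0.0506 to 0.365). The unnamed probe set 98501_at was dim on all extraocular arrays (40.7 to 253.7 units) and on the leg mdx arrays (107.9 to 302.8), and read 821.1, 880.8 and 574.4 units in leg dko. Its response difference was -1.68 (SE 0.212, 95% interval -2.15 to -1.21, limma adjusted p = 0.0481), and it passed in no fit with a replicate left out (0.116 to 0.367). Without the block both probe sets had an adjusted p of 1.0.

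Myh7 (98616_f_at), the slow myosin heavy chain, had the largest negative estimate of the ranked genes but fell just short of the threshold. It read 11230.9, 18949.2 and 22901.1 units in extraocular mdx and 15142.1, 21657.5 and 24222.6 in extraocular dko. In leg mdx it read 241.2, 1999.2 and 363 units, and in leg dko 17632.2, 15031.4 and 16145.1. The leg mdx array numbered 2 was the highest of its group here and the lowest for Myl2. The response difference was -4.17 (SE 0.558, 95% interval -5.41 to -2.92, limma adjusted p = 0.0531 with the block and 0.0851 without it). It passed without leg replicate 2 (-4.96, adjusted p = 0.000235) or without number 2 in both tissues (-4.94, adjusted p = 0.00316), and missed the threshold with any other replicate left out (-4.27 to -3.65, adjusted p = 0.153 to 0.322). The probe set's suffix marks it as one that can share sequence with other genes, and the near-identical Myh6 makes its assignment uncertain. A dim second probe set of Myh7, 161547_f_at, gave -0.31 (adjusted p = 0.75).

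**Figure D1:**
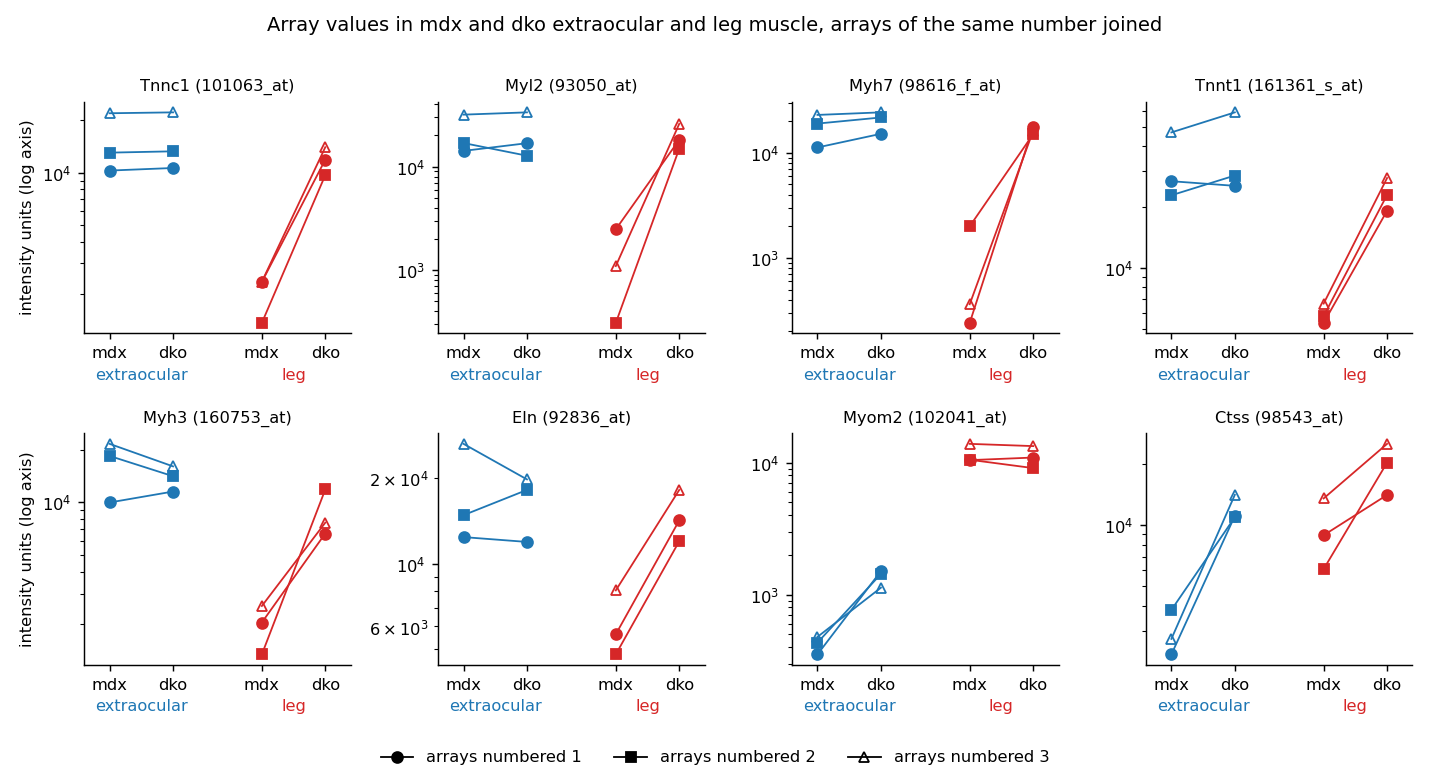
Intensity on a log axis for 8 probe sets on the 12 arrays, with mdx and dko arrays of the same tissue and number joined by a line; circles, squares and open triangles are the arrays numbered 1, 2 and 3. For Tnnc1, Myl2, Myh7 and Tnnt1 the leg lines climb from below the extraocular arrays while the extraocular lines stay nearly level; the Myom2 lines climb in extraocular muscle and stay level in leg, and the Ctss lines climb in both.

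For 3 slow genes and embryonic myosin, all of which rose in leg, the 250 bases before the start are shown. Tnnc1 was called for the difference and the other 3 were not. The window of Myl2 is left out, because it was not established that the starts listed for it include the one used in muscle. For Myh7 2 starts are listed as well, and whether the window shown belongs to the one used in muscle was not examined. The sequences are from RefSeq on GRCm38.p6 and run 5′ to 3′ on the gene's strand. They are Tnnc1 at chr14:31208062-31208311 on the plus strand, Myh7 at chr14:54994550-54994799 on the minus strand, Tnnt1 at chr7:4515976-4516225 on the minus strand and Myh3 at chr11:67078050-67078299 on the plus strand. Capitals mark every match, on either strand, to the E-box CANNTG (bound by MyoD-family factors among others), the MCAT element CATTCC, the TATA box TATAAA, the MEF2 site or the CArG box.
Tnnc1: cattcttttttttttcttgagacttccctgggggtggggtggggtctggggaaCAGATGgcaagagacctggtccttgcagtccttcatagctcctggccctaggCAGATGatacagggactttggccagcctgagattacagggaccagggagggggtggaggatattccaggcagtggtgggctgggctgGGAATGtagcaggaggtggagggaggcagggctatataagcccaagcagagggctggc
Myh7: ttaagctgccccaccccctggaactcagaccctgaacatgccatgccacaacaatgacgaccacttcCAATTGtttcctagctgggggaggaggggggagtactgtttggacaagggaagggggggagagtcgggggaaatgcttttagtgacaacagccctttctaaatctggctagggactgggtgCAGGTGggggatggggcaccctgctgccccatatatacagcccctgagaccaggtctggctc
Tnnt1: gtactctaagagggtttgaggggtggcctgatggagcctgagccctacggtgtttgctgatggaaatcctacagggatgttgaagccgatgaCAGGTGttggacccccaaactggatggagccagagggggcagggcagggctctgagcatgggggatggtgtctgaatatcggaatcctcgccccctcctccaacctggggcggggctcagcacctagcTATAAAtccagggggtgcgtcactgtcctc
Myh3: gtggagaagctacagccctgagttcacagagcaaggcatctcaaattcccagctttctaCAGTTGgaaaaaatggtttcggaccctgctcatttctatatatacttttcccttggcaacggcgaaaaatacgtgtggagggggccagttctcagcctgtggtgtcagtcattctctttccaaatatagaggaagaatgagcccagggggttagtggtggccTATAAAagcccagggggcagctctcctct
Each window held an E-box, with 2 in Tnnc1, 2 in Myh7, 1 in Tnnt1 and 1 in Myh3, as did 66.2% of the 32536 windows of this length. The MCAT element was found in that of Tnnc1 only (12.6% of all windows), and the TATA letters in those of Tnnt1 and Myh3 (12.3%). None of the 4 windows matched MEF2 (2.89% of all windows) or CArG (1.48%). A match describes letters and not a bound site.

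The list of slow-fibre proteins, which includes Tnnc1, Myl2 and Myh7, lay in the same direction. These genes enter the counts that follow, so the counts are not separate from the results above. The list was chosen with earlier results of these data known. Of 14 slow and cardiac-shared contractile genes tested, 13 had a response difference below 0, against 46.3% of all probe sets, with a median of -1.004 against 0.028. In 8 of the 14 all 3 extraocular pair changes lay below all 3 leg pair changes (6.95% of all probe sets did). The list's median change was 1.12 in leg and 0.08 in extraocular muscle. In leg 7 of the 14 rose (1.01% of all probe sets did) and 0 fell, and in extraocular muscle 0 were called. Without the block 1 of the 14, Myh7, was called in leg (0.0563% of all probe sets were). The differences called were those of Tnnc1 and Myl2.

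Among the remaining leg calls, Tnnt1 (161361_s_at), slow troponin T, read 5338.6, 5768.4 and 6655 units in leg mdx and 19171.2, 22961.7 and 27836.3 in leg dko, against 22872.3 to 58842.6 on the 6 extraocular arrays. Its response difference of -1.75 (SE 0.393) did not pass (limma adjusted p = 0.348). A second Tnnt1 probe set, 101383_at, gave -0.95. Tpm3 (93266_at), the slow tropomyosin, read 4563.1, 3760 and 2055.1 units in leg mdx and 11394.2, 9749.1 and 9950.6 in leg dko, with a response difference of -1.63 (limma adjusted p = 0.316). Atp2a2 (99570_s_at), the calcium pump of slow and cardiac muscle, read 1575.9, 1169.3 and 2443.3 units in leg mdx and 4686.8, 5349.8 and 7637.8 in leg dko. Its response difference was -1.61 (limma adjusted p = 0.205). In each of these 3 genes the leg groups did not overlap, and all extraocular pair changes lay below those of leg. Slow troponin I, Tnni1 (98561_at), rose less in leg, by 0.98 on the log2 scale (limma adjusted p = 0.0384), and its response difference was -0.78 (adjusted p = 0.439).

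For fast-fibre genes the medians of the tissues lay close together. Of 17 tested, 12 had a response difference below 0 (46.3% of all probe sets did), with a median of -0.17. The list's medians were 0.19 in leg and 0.12 in extraocular muscle. By replicate number the median response difference was -0.39, -0.41 and 0.77, so number 3 had the opposite sign. Acta1 (100381_at), skeletal muscle actin, rose in leg (log2 1.90, limma adjusted p = 0.0158 with the block and 0.861 without) and its response difference was -1.75 (adjusted p = 0.282). Its levels were unlike those usual for this abundant protein: 256.1, 247.7 and 6656.3 units in leg mdx and 1281.8, 1915 and 20656.3 in leg dko, against 16594.8 to 53392.1 in extraocular muscle. The arrays numbered 3 carried most of the signal in leg.

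Myom2 (102041_at), a protein of the M-band of fast fibres, ranked first by moderated t in the other direction. It read 352.4, 433 and 478.5 units in extraocular mdx and 1506.6, 1433.4 and 1128.3 in extraocular dko, a log2 rise of 1.37 (SE 0.151, 2.58-fold, limma adjusted p = 0.0316 with the block and 0.0203 without). In leg it was bright and level, at 10448.7, 10520.2 and 13881.6 units in mdx and 10932.7, 9097.2 and 13350.2 in dko. The response difference was 1.44 (SE 0.214, 95% interval 0.96 to 1.91) and did not pass in the main setting (limma adjusted p = 0.0892). It passed in some of the alternative settings given below. The pair differences of 1.62, 1.62 and 1.06 were all positive.

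**Figure D2:**
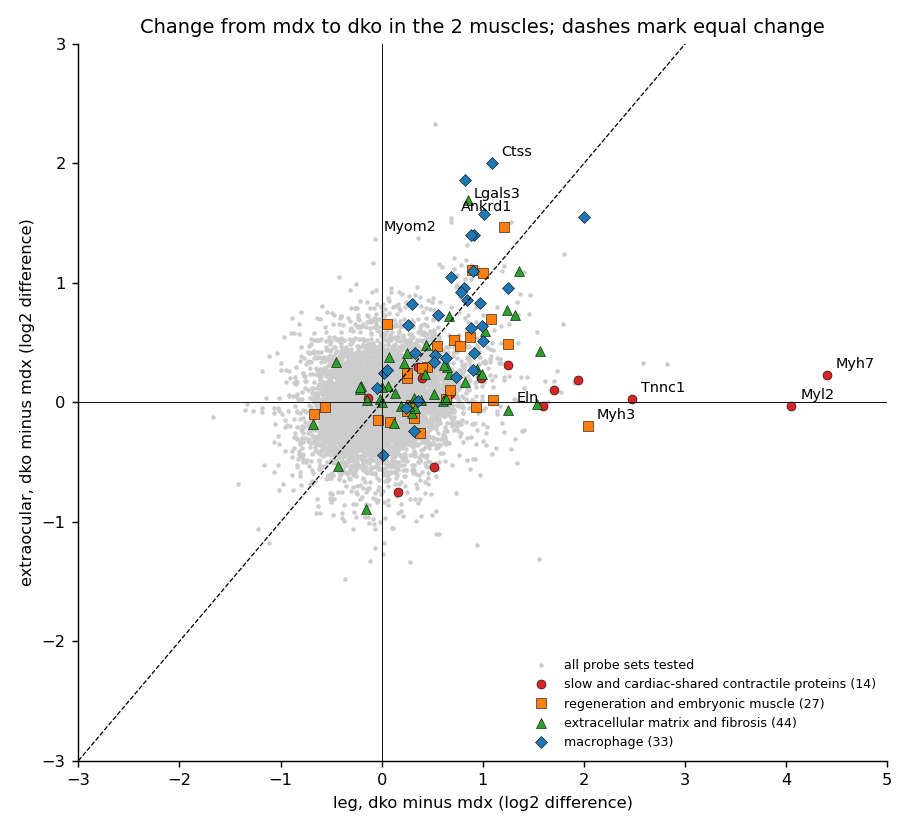
Log2 change from mdx to dko in leg (horizontal axis) against that in extraocular muscle (vertical axis) for the 8888 probe sets tested (grey), with 4 gene lists in colour and dashes where the changes would be equal. The slow genes run along the horizontal axis, out to Myl2 (4.05 in leg, -0.03 in extraocular muscle) and Myh7 (4.40 and 0.23), while most macrophage genes lie above 0 (30 of 33 in extraocular muscle and 32 of 33 in leg).

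Genes of regenerating and embryonic muscle were the next group with leg calls. Of 27 tested, 7 rose in leg (Myh3, Myh8, Myl4, Myf5, Tmsb10, Tubb2a and Peg3; 1.01% of all probe sets did). In extraocular muscle 1, Myl4, rose (0.135% of all probe sets did). The list's medians were 0.55 in leg and 0.20 in extraocular muscle, and 20 of the 27 had a response difference below 0 (46.3% of all probe sets did), with a median of -0.24 and 0 called. In 7 of the 27 the extraocular pair changes all lay below those of leg (6.95% of all probe sets). Without the block 2 were called in leg and 0 in extraocular muscle (0.0563% and 0.0225% of all probe sets were).

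Embryonic myosin, Myh3 (160753_at), was already high in extraocular muscle, at 9979.7, 18438.3 and 21624.8 units in mdx and 11529.3, 14114.8 and 16067.1 in dko. In leg it read 2049, 1345 and 2547.7 units in mdx and 6628.4, 11845.7 and 7648.1 in dko. The leg groups did not overlap, and the leg dko range reached up to the lower extraocular arrays. Its response difference was -2.24 (SE 0.368, 95% interval -3.07 to -1.42, limma adjusted p = 0.112). Myh8 (160243_r_at), the perinatal myosin, was higher on every dko array of both tissues, with log2 changes of 1.08 in leg (limma adjusted p = 0.0289) and 0.70 in extraocular muscle (adjusted p = 0.292) and a response difference of -0.38 (95% interval -0.96 to 0.20).

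Myl4 (160487_at), the embryonic and atrial light chain, rose in both tissues. It read 1614.3, 3349 and 6991.9 units in extraocular mdx and 7517.9, 9236.1 and 12933.2 in dko, and 7032.7, 6217.4 and 9047.8 in leg mdx and 15264.3, 16877.3 and 19724.8 in dko. The log2 rises were 1.47 (limma adjusted p = 0.0325 with the block and 0.755 without) and 1.21 (adjusted p = 0.0262 and 0.46), with a difference of 0.26 (95% interval -0.38 to 0.89) whose sign turned without extraocular replicate 1 (-0.06). Its other probe set, 100828_at, disagreed in leg, with a log2 change of -0.43 there and 0.52 in extraocular muscle. Whether Myh3 and Myl4 differ in their response difference was not tested.

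Of the regulators, Myf5 (101162_at), a transcription factor of muscle precursor cells, read 550.5, 387.7 and 98.3 units in leg mdx and 833.5, 988 and 459.9 in leg dko, and 561.2 to 1049 on the extraocular arrays. It rose in leg (log2 0.93, limma adjusted p = 0.0456) and its response difference was -0.97 (adjusted p = 0.4). Follistatin, Fst (98817_at), an antagonist of myostatin and activin, had a response difference of -1.07 (adjusted p = 0.424) and a leg change of 1.10 that missed the threshold (adjusted p = 0.0541). Tubb2a (94835_f_at), a tubulin, rose by 1.25 in leg (adjusted p = 0.0141) against 0.49 in extraocular muscle. Its other probe set, 161614_r_at, disagreed in leg (-0.23), and its response difference was 0.63 against -0.76 for 94835_f_at. Probe sets of Peg3 disagreed too: in leg 96765_at, the one called, gave 0.87 and 101451_at 1.07, while 161316_f_at gave -0.20. Tmsb10, an actin-binding peptide, read higher in dko by 1.00 in leg (adjusted p = 0.0338) and 1.08 in extraocular muscle (adjusted p = 0.0816).

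Subunits of the acetylcholine receptor, which spreads beyond the synapse when a fibre is new or denervated, belonged to the genes that rose in leg. Chrna1 (100021_at) read 2325.8, 3360.4 and 3348.8 units in leg mdx and 4065.1, 5866.1 and 6519.8 in leg dko, and 4558.7 to 7694.7 on the extraocular arrays. Chrnd (96549_at) read 228, 332 and 334.8 units in leg mdx and 856.9, 668.6 and 795.6 in leg dko, and 509 to 769 on the extraocular arrays. For both genes the leg groups did not overlap while the extraocular groups did. The response differences were -0.66 and -1.07 (limma adjusted p = 0.424 and 0.4). These were the 2 of 13 neuromuscular junction genes called in leg (1.01% of all probe sets were called higher there), and 0 of the 13 were called in extraocular muscle or for the difference. Without the block neither passed in leg (adjusted p = 0.335 and 0.303).

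A minority of matrix genes rose in leg. Of 44 tested, 7 were called in leg, all higher (Col5a2, Col8a1, Col14a1, Postn, Eln, Bgn and Mmp3; 1.01% of all probe sets), 37 were not and 9 lay below 0 there. The count called was 0 in extraocular muscle and 0 for the difference. The medians were 0.36 in leg and 0.13 in extraocular muscle, and 29 of the 44 had a response difference below 0 (46.3% of all probe sets), with a median of -0.28. In 10 of the 44 the extraocular pair changes all lay below those of leg (6.95% of all probe sets), and in 0 above (8.1% of all probe sets did). Without the block 1 was called in leg (0.0563% of all probe sets were).

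Elastin, Eln (92836_at), read 12400.7, 14819.3 and 26440.8 units in extraocular mdx and 11922.6, 18191.2 and 19812.1 in extraocular dko. In leg it read 5629.9, 4782.4 and 8043.7 units in mdx and 14189.9, 11985.8 and 18181.4 in dko. The leg moved into the extraocular range. Elastin's response difference was -1.31 (SE 0.241, limma adjusted p = 0.203), and a second probe set, 92207_at, gave -0.86. Mmp3 (98833_at), a matrix-degrading protease, read 689.3, 656.8 and 707.1 units in leg mdx and 1993.5, 3210.7 and 2026.5 in leg dko, with a response difference of -1.14 (adjusted p = 0.381). Periostin, Postn (92593_at), a matrix protein of wound repair, was higher on all dko arrays of both tissues, by 1.24 in leg (adjusted p = 0.0204) and 0.77 in extraocular muscle (adjusted p = 0.289), and its difference was -0.48 with a 95% interval of -1.08 to 0.13.

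Most macrophage genes read higher in dko in both tissues. Of the 44 on the list 36 had a probe set, and of the 33 bright enough to test, 30 were above 0 in extraocular muscle and 32 in leg, against 48.8% and 44.7% of all probe sets, with medians of 0.64 and 0.78. The median response difference was 0.024, next to 0.028 over all probe sets, and 17 of the 33 were above 0. The summed level of the list was 37780 to 49170 units in extraocular mdx and 81940 to 86670 in extraocular dko, and 53540 to 91200 and 94290 to 164200 in leg. The ranges did not overlap between genotypes in either tissue. In extraocular muscle 4 rose (Ctss, Lgals3, Mpeg1 and Lilr4b), and in leg 4 others (Csf1r, Cd53, C1qb and C1qc). Higher calls over all probe sets were 0.135% and 1.01%. Without the block 1 macrophage gene, Ctss, was called in extraocular muscle and 0 in leg (0.0225% and 0.0563% of all probe sets were). None of these 8 was called for the difference, so the tissues are not shown to differ in which macrophage genes moved.

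Cathepsin S, Ctss (98543_at), a protease of antigen-presenting cells, read 2290.6, 3805.3 and 2735 units in extraocular mdx and 11121.7, 10961.6 and 14143 in dko, a log2 rise of 2.00 (SE 0.233, limma adjusted p = 0.0316 with the block and 0.0203 without). In leg it read 8921.3, 6063 and 13580.2 units in mdx and 14128.8, 20426.5 and 25306.4 in dko (log2 1.09, adjusted p = 0.0581). Galectin-3, Lgals3 (95706_at), a lectin of activated macrophages, read 320.5, 1323.5 and 984.2 units in extraocular mdx and 2590.5, 3409.1 and 3879.2 in dko (log2 1.86, adjusted p = 0.0333 with the block and 0.498 without). Both had positive response differences on the arrays numbered 1 and 3 (1.55 and 1.41 for Ctss, 2.20 and 1.17 for Lgals3) and negative ones on those numbered 2 (-0.24 and -0.26). The fitted differences were 0.91 and 1.04 (adjusted p = 0.457 and 0.453).

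Complement C1qc (92223_at), made by macrophages, leaned the other way, with a response difference of -0.50 (95% interval -0.93 to -0.06, adjusted p = 0.492) and a leg rise of 0.91 (adjusted p = 0.0204). The receptor Csf1r (104354_at), on which macrophages depend, rose by 1.00 in leg (adjusted p = 0.0456) and read 0.51 higher in extraocular dko. Other probe sets disagreed: 161832_r_at of Csf1r gave -0.01 in leg, and 162276_i_at of C1qb gave -0.59 (adjusted p = 0.0814) against 1.25 for the C1qb probe set called there (96020_at). The spread of Cd53 (94939_at), a leukocyte membrane protein, was wide, with differences of -0.32, -2.20 and 1.19 by number. Of the class II antigen-presenting genes, H2-Aa (92866_at) and H2-Ab1 (100998_at) rose in leg, by 1.14 (adjusted p = 0.0326) and 1.12 (adjusted p = 0.017), the only 2 of 27 antigen-presentation and interferon genes called there (1.01% of all probe sets were called higher). Without the block their adjusted p was 0.515 and 0.0798. H2-Ab1 read 1255.6, 1439.7 and 1550.4 units in extraocular mdx and 2007.4, 1407.7 and 1635.5 in dko, and its response difference was -0.91 (adjusted p = 0.351). That list had 23 of 27 response differences below 0 (46.3% of all probe sets), with a median of -0.26 and 0 called.

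**Figure D3:**
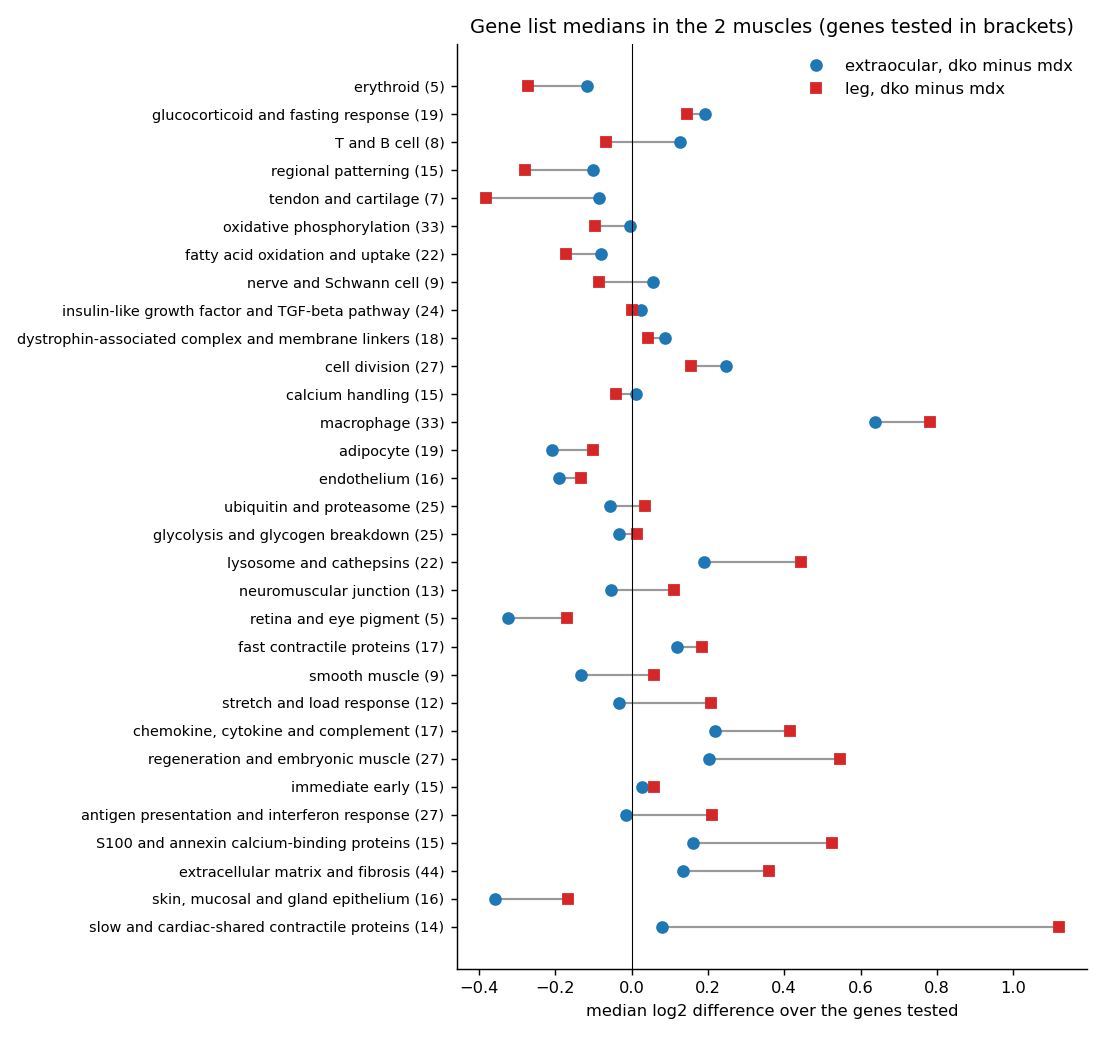
Median log2 change from mdx to dko over the tested genes of each of 31 gene lists, in extraocular muscle (circles) and leg (squares), ordered by the median response difference. The slow contractile list has the widest gap (0.08 in extraocular muscle, 1.12 in leg), and the macrophage list lies farthest to the right in extraocular muscle, at 0.64.

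Ankrd1 (102048_at), a protein of the titin complex that responds to stretch, read 219.2, 440.1 and 596.2 units in extraocular mdx and 1227.5, 1503.4 and 1703.8 in dko, a log2 rise of 1.54 (SE 0.205, limma adjusted p = 0.0316 with the block and 0.304 without). In leg it was brighter and less regular, at 3691.7, 9000 and 4750.4 units in mdx and 9334.7, 12904.2 and 5733.7 in dko (log2 0.69, adjusted p = 0.123). The difference between the tissues was 0.84 (95% interval 0.20 to 1.49, adjusted p = 0.446). S100a4 (99051_at), a calcium-binding protein of fibroblasts and leukocytes, rose in both tissues, by 1.15 in extraocular muscle (adjusted p = 0.0316 with the block and 0.181 without) and 0.78 in leg (adjusted p = 0.0476 and 0.338).

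The 10 genes ranked lowest by moderated t among those with all 3 pair differences negative were Tnnc1, Myl2, Myh7, Plac8, Fbln1, Ablim1, Myh3, Igfbp4, Eln and Maged1. This is a ranking, and only the first 2 were called. Plac8 (98092_at) went from 2370.6, 2160 and 1355.7 units in extraocular mdx to 1943.1, 1181.5 and 1503 in dko, and from 1069, 1123.4 and 1242.7 in leg mdx to 2779.3, 2738.2 and 3948.7 in leg dko. The leg groups did not overlap and the extraocular groups did. It rose in leg by 1.32 (adjusted p = 0.0141), and its response difference was -1.63 (SE 0.244, limma adjusted p = 0.0892). Fbln1 (94307_at), fibulin 1 of the matrix, read 1768.9, 1756.3 and 2617.8 units in extraocular mdx and 1441.3, 1393.3 and 1532.4 in dko, against 190.6, 183 and 197.3 in leg mdx and 432.9, 742.6 and 640.4 in leg dko. Each extraocular pair was lower in dko and each leg pair higher. Its response difference was -1.52 (adjusted p = 0.103), and 2 further probe sets, 94308_at and 94309_g_at, gave -0.85 and -0.49.

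Ablim1 (103574_at), an actin-binding LIM protein, read 2543.6, 3002.1 and 4953.2 units in extraocular mdx and 2025.4, 2802.2 and 3738.3 in dko, and 999.6, 674.6 and 748.5 in leg mdx and 1844.7, 1573 and 2014.2 in leg dko. Its response difference was -1.29 (adjusted p = 0.103). Igfbp4 (101571_g_at), which binds insulin-like growth factors, and Maged1 (96703_at), an adaptor protein, gave -1.17 and -1.20 (adjusted p = 0.183 and 0.203). Both rose in leg, by 0.94 and 1.17 (adjusted p = 0.0204 and 0.0159). A dimmer probe set of Igfbp4, 94222_at, gave 0.26.

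The 10 genes ranked highest were Myom2, Ighm, Oca2, Zkscan3, Gdap1, Lactb2, Zcchc3, Rps4x, Cdip1 and Homer1, and 0 of them were called. Ighm (93584_at), the heavy chain of IgM antibodies made by B cells, read 329.9, 326.2 and 314.5 units in extraocular mdx and 313.6, 323.7 and 219 in dko. In leg it read 2082, 1033.1 and 1107.7 units in mdx and 321.2, 327.7 and 277.9 in dko, so that leg mdx stood apart from the other 3 groups. It fell by 1.67 in leg on the log2 scale (limma adjusted p = 0.00506), and the response difference was 1.54 (SE 0.247, adjusted p = 0.103). Probe set 93583_s_at of Ighm gave 1.13, and the dimmer 100362_f_at gave -0.51. The other 8 had extraocular changes above 0 (0.27 to 0.81) and leg changes below 0 (-0.97 to -0.50). Of these only that of Oca2 (97082_at), a pigment gene, in leg was called; it fell by 0.95 (adjusted p = 0.0204). For Rps4x, a ribosomal protein, the ranked probe set 162244_r_at gave 1.23 while the much brighter 100780_at gave -0.04.

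**Figure D4:**
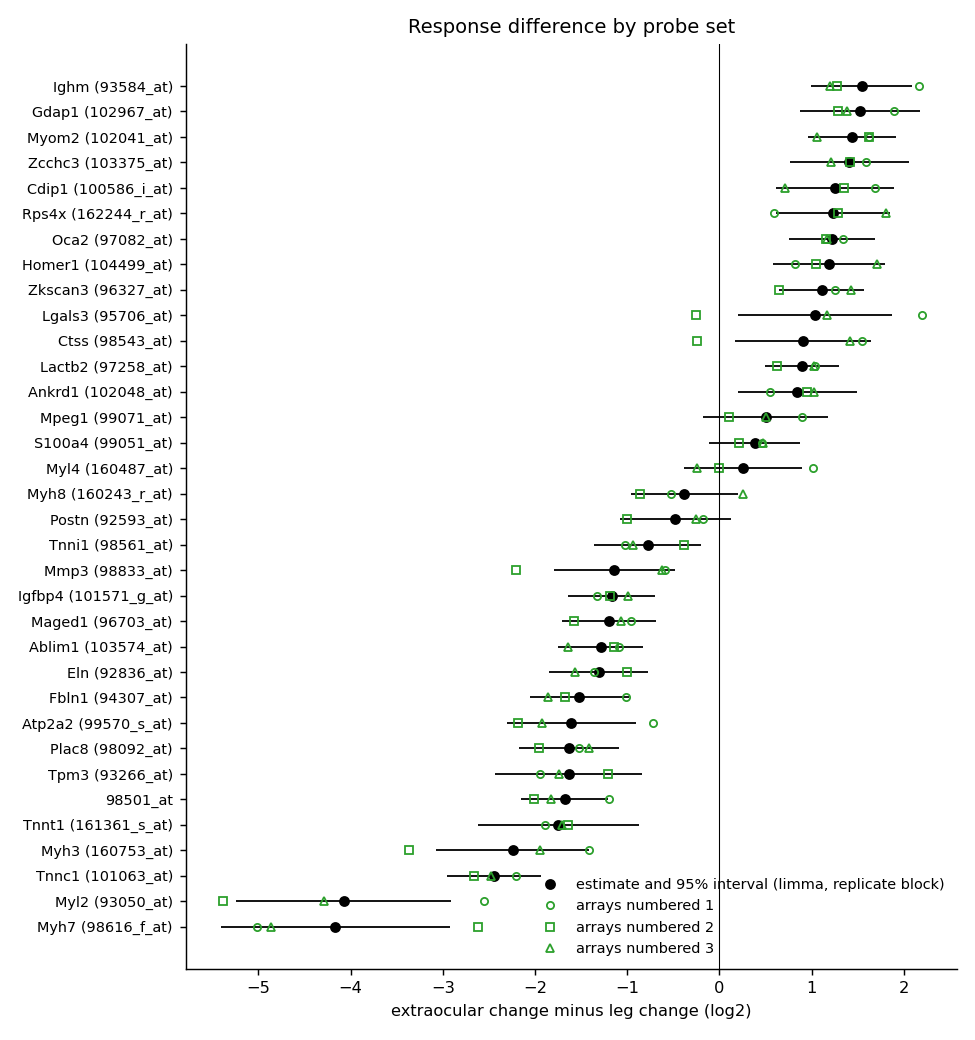
Response difference (extraocular change minus leg change, log2) for the 20 ranked genes, 98501_at and 13 further named probe sets, with the limma estimate and its 95% interval (black) and the 3 differences by replicate number (green). Tnnc1 has the narrowest interval among the estimates below -2 (-2.96 to -1.94), and Ctss and Lgals3 have 1 difference of the opposite sign each.

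Each tissue's calls were also followed into the other tissue's separate arrays. Of the 90 probe sets higher in leg, 74 had an extraocular change above 0 (48.8% of all probe sets did), with a median of 0.25 against 1.00 in leg. Whatever its sign, the extraocular change was at least 50% as large in 28 of the 90. In extraocular muscle 4 of the 90 were also called (Myl4, S100a4, Ms4a6c and Kcne1l). Of the 17 lower in leg, 16 were below 0 in extraocular muscle, where 48.8% of all probe sets were above 0. Their median there was -0.12, against -0.86 in leg. Of the 12 higher in extraocular muscle, 11 were above 0 in leg (44.7% of all probe sets were), with a median of 0.86 against 1.43. The 2 lower in extraocular muscle were Utrn and Ucp1, both below 0 in leg. A list chosen by its call in a tissue has its size there inflated by the choice, so the medians show direction and not how much the responses differ.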

How the data were processed

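Each sample is an Affymetrix mouse array of total RNA. The deposited values are intensity on a linear scale, which the authors had scaled to nearly equal means (2% of values trimmed at either end); this was read from the values, and the software, detection calls and scan dates are not given in the sources used here. The number of arrays limits the precision. The 66 control probe sets were left out of the tests. The test took in 8888 probe sets (7977 with 1 gene symbol in the supplied platform table) that exceeded the 40th percentile on 3 or more of the 18 arrays. To each value 166.7, the typical 25th percentile (median over arrays), was added before log2, so fold changes of dim probe sets are understated.

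Limma 3.58.1 (R 4.3.3) fitted the 6 group means on all 18 arrays plus a block for each number in each tissue (residual degrees of freedom 6, prior 3.79), since the comparison is defined over pairs. The first alternative leaves the block out. The numbers pair the arrays by their deviations (0.404 to 0.751 for the same tissue), but arrays sharing a number across tissues correlate alike (0.337 to 0.74), so the number need not mean an animal. Tests were two-sided and adjusted by Benjamini-Hochberg over all 8888 probe sets. In data simulated for the response difference, the fit called 25 of 50 probe sets changed by 1 on the log2 scale, 47 of 50 changed by 2, 48 of 50 changed by 3 and 50 of 50 changed by 4, with 16 false calls. Many more probe sets were changed there than the 3 called in the measured values, which loosens the adjusted threshold. Noise was also drawn independently for each probe set. The recovery is therefore a check of the fit and does not give the power of the measured comparison.

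Genes were named by rule: Utrn and Dmd, all calls of the response difference, the 10 highest and 10 lowest by moderated t, and in each of 31 gene lists the members called in a tissue and the 2 to 4 with the largest t. A gene in a list stands for its brightest probe set. The members and lists were chosen with earlier results of these data known. Promoter windows came from RefSeq (GRCm38.p6). Python 3.11.15 with matplotlib 3.10.9 drew the figures.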

Additional observations from a re-analysis of the deposited data

Results flagged for a closer look

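The change from mdx to dko differed between extraocular and leg muscle, by the test of the difference itself (limma with the replicate block), for 3 probe sets. They were Tnnc1, with a response difference of -2.45 on the log2 scale, Myl2 with -4.07 and the unnamed 98501_at with -1.68. All 3 pair differences were negative in each. Whether 98501_at was bright enough to be tested only through its leg dko arrays was not examined. The source of the difference was not tested.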

How the results depend on the processing

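The response difference was called for 3 probe sets in the main setting. The count was 0 with no replicate block, 5 with a block common to all tissues, 1 with the extraocular and leg arrays alone, 1 with an offset of 16, 6 with an offset of 500, 1 with no filter on dim probe sets, 5 with the 60th percentile filter and 8 with trend and robust variance; it stayed at 3 with 75th percentile scaling and quantile normalization. Leaving out replicates gave 0 to 2. Tnnc1 passed in all 9 alternatives that kept all pairs of the 2 tissues and a block, with adjusted p from 0.000266 to 0.0315. Myl2 lost its call under the common block (adjusted p = 0.502), the 12 arrays alone (0.155), an offset of 16 (0.131) and no filter (0.0779), and 98501_at under the 12 arrays alone (0.155), an offset of 16 (0.22), no filter (0.0779) and trend and robust variance (0.0972). Myom2, higher in extraocular muscle, passed under the common block (limma adjusted p = 0.0402), the 60th percentile filter (0.048) and trend and robust variance (0.0245), and in no other setting. Myh7 passed under the common block (0.0294), an offset of 500 (0.00669) and the 60th percentile filter (0.0392), besides the fits without replicate 2 given above. The extraocular count of 14 became 2 with no replicate block, 0 with the 12 arrays alone, 0 with an offset of 16 and 8 with no filter, and 0 to 16 with replicates left out. The leg count of 107 became 5 with no replicate block, 13 with the 12 arrays alone, 34 with an offset of 16, 264 with an offset of 500, 270 with the 60th percentile filter and 298 with trend and robust variance, and 2 to 83 with replicates left out. Some small response differences changed sign, none of them called. With replicates left out they ranged from -0.59 to 0.20 for Cdk1, -1.19 to 0.05 for Pde6b, -0.98 to 0.03 for Utrn 92508_s_at, -0.44 to 0.01 for Dmd, -1.26 to 0.44 for Cd53, -0.67 to 0.11 for C1qb, -0.12 to 0.56 for Myl4, -0.01 to 0.72 for Car2 and -0.13 to 0.25 for Tmsb10, which also turned to -0.07 under quantile normalization. The cause was not tested. Dim probe sets such as 98501_at are limited by their signal over background, and it did not pass the 60th percentile filter.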

Other observations

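Epithelial and fat-cell markers were measured beside the muscle genes. Of 16 genes of skin, mucosal and gland epithelium, 15 were below 0 in extraocular muscle, with a median of -0.36, and 0 were called. In leg 12 of the 16 were below 0 as well, with a median of -0.17. Over all probe sets 48.8% were above 0 in extraocular muscle and 44.7% in leg. Krt19 (92550_at), a keratin of ducts and mucosa, read 293.8, 1383.8 and 762 units in extraocular mdx and 68.5, 219.6 and 293.2 in dko, against 19.3 to 56.2 units in leg. The summed level of the list was 10570 to 15620 units in extraocular mdx and 8025 to 12390 in dko. In leg this sum was 6692 to 17210 units in mdx and 6791 to 15620 in dko, which overlapped the extraocular ranges. Ucp1 (99507_at), the heat-producing protein of brown fat, fell in extraocular muscle by 1.48 (limma adjusted p = 0.0316 with the block and 1.0 without), from 538.1, 1207.2 and 1952.6 units to 52.3, 238.6 and 889.5, and read 37.5 to 175.7 units in leg. A second Ucp1 probe set, 161422_f_at, gave log2 changes of -0.39 in extraocular muscle (limma adjusted p = 0.653) and -0.46 in leg. Its response difference was 0.07, against -1.12 for 99507_at. Fatty acid synthase, Fasn (98575_at), read 4455.3, 6501.3 and 7229.9 units in extraocular mdx and 3469, 2760.4 and 3830.2 in dko, with a response difference of -1.09 (adjusted p = 0.446). Over all 19 adipocyte genes tested the median response difference was 0.004, with 10 above and 9 below 0, and 14 lay below 0 in each tissue. The part of neighbouring tissue in the extraocular results was not tested.

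Genes of cell division leaned upward in both tissues, with medians of 0.25 in extraocular muscle and 0.16 in leg over 27 genes. Cdk1 and Cks2, which drive entry into mitosis, rose in leg by 1.24 and 1.37 (limma adjusted p = 0.0415 and 0.0326). They were the 2 of 27 called there (1.01% of all probe sets were called higher). In extraocular muscle they read 0.93 and 0.91 higher in dko, and their response differences were -0.31 and -0.46 (adjusted p = 0.818 and 0.725). Tk1 and Rrm1, which make DNA precursors, had positive response differences of 1.00 and 0.83 (adjusted p = 0.424 and 0.4). Of 33 oxidative phosphorylation genes, 26 had a response difference above 0 and 7 below (46.3% of all probe sets were below), with a median of 0.093 and 0 called. By replicate number that median was -0.32, 0.11 and 0.51. The 18 genes of the dystrophin-associated complex tested gave medians of 0.087 in extraocular muscle and 0.042 in leg, and 0 were called in either tissue. The chemokine Ccl8 (92459_at) rose in leg from 1225, 283.8 and 1418.2 units to 3860.8, 2995.1 and 3053.7 (log2 1.79, adjusted p = 0.0204), and annexins Anxa1 and Anxa2, which take part in membrane repair, rose there by 0.97 and 0.92 (adjusted p = 0.0246 and 0.0204) with response differences of -0.72 and -0.76, neither of them called. Without the block none of these leg calls was kept (adjusted p = 0.331 to 0.938 for Cdk1, Cks2, Ccl8, Anxa1 and Anxa2).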
